A study of Arabidopsis thaliana with 18 samples.

Results

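The 7 genes described here encode tetraspanins: TET4, TET8, TET10, TET11, TET12, TET14 and TET16. They were taken as the probe sets whose gene symbol was one of these names. Each gene had 1 probe set, and they were 7 of the 15 tetraspanin genes with a named probe set and 7 of 13350 genes in all. The 7 were chosen by name with the signals of induced and not induced seedlings already known. Differences between those seedlings are therefore given as a description: the 7 genes are counted beside the share of all probe sets, with no p-value of their own, and nothing rests on the counts.

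Tetraspanins are small proteins that cross the membrane several times and gather partner proteins into membrane domains. In Arabidopsis, TET11 and TET12 are known as genes of the sperm cells, which the pollen grain carries, and DUO1 is the MYB transcription factor that switches on male germline genes such as MGH3, a sperm cell histone H3. TET8 marks extracellular vesicles that leaf cells release. The arrays therefore show how a family with both germline and vegetative members stood when DUO1 was expressed outside the germline.

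All plants were Col-0 seedlings carrying pMDC7DUO1, annotated in the labels as a T-DNA mutation, grown in constant light for 12 days before treatment and collected whole. There were 6 groups, with and without induction for 6 h, 12 h or 24 h, and 3 ATH1 arrays in each, 18 in all. As background, pMDC7 is an oestradiol-inducible vector whose activator has a constitutive promoter, so expression is not limited to 1 cell type. The labels name no group that had the inducer without the construct, so an effect of the inducer and an effect of DUO1 cannot be told apart, and they do not say how many transgenic lines were used or whether replicates were separate cultures. P-values thus measure only the spread between these arrays.

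Levels are MAS5 signals on a linear scale, scaled by the authors to 1 trimmed mean per array. The background level of an array, the highest signal among 27 control probe sets for transcripts not added to the samples, lay between 3.30 and 10.1, and 72.3% to 83.6% of probe sets lay above it. Where all 3 arrays of the lower group were at or below it, a fold is a lower bound against the background level ("at least"). Where the lower group had 1 or 2 such arrays, signals are given without a fold between the groups. MGH3, read as a check of the labels because no probe set tested was named DUO1, stood at 144 to 643 on the 9 induced arrays and at 0.750 to 6.04 on the 9 others. The 4 leaf markers with a named probe set were above background on all 18 arrays, as were the root markers PYK10 and EXPA18. The root hair expansin genes EXPA7 and EXPA18 fell with induction (limma), by 1.52 and 0.87 on the log2 scale at 6 h, by 1.51 and 1.18 at 12 h and by 2.01 and 1.60 at 24 h. PYK10 and the 4 leaf markers did not pass at any time. Of 11 root entries 3 had a named probe set, and of 18 leaf entries 4. Entries were matched by name to probe sets annotated with 1 gene, and 8730 of 22746 probe sets had no gene in the annotation. An entry without a match may thus still be on the array, here and in the lists below. Of all probe sets 0.967%, 4.84% and 8.33% were called at the 3 times. Whether the root hair change bears on any tetraspanin was not tested. Fewer cells of a type and less RNA per cell cannot be told apart in whole seedlings.

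**Figure D1:**
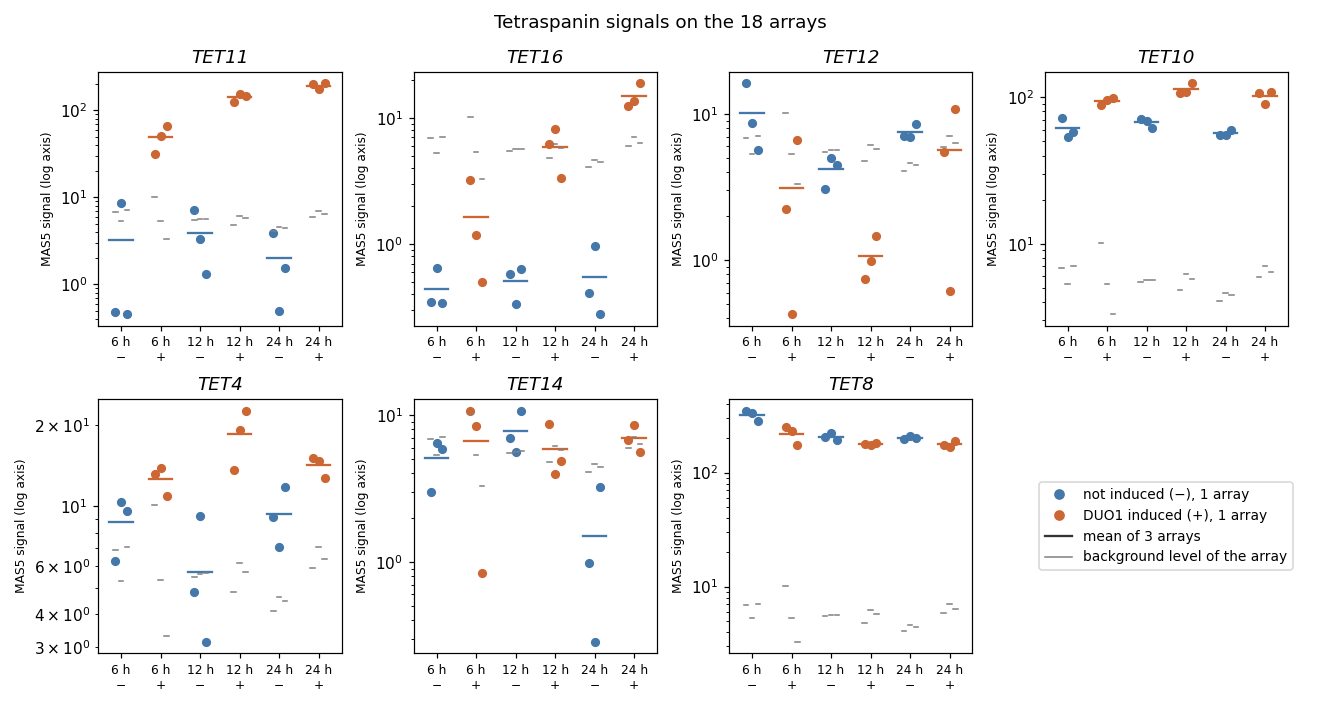
MAS5 signal (log axis) of each of the 7 genes on every array, by time and induction; points are arrays, horizontal bars are means of 3 arrays, and short grey lines are the background level of each array. TET11 reached 193 in induced plants at 24 h and TET16 reached 14.9, while TET8 was highest, at 321, in plants not induced at 6 h.

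TET11, a sperm cell tetraspanin, was near background without induction and was higher in induced seedlings at each later time. At 6 h its signals were 31.4, 51.1 and 66.7 on the induced arrays and 0.487, 8.68 and 0.455 on the others. At 12 h they were 125, 153 and 145 against 7.20, 3.33 and 1.32. The lowest induced array was 3.61-fold above the highest other array at 6 h and 17.4-fold at 12 h, so the groups did not overlap, although 2 of 3 arrays without induction were at background at both times. At 24 h the induced arrays stood at 199, 176 and 204 and the others at 3.93, 0.492 and 1.56. With all 3 of these at background, TET11 was at least 44.0-fold higher in induced plants at 24 h.

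Within induced plants the mean TET11 signal was 49.7 ± 17.7 (SD, n = 3) at 6 h, 141 ± 14.1 at 12 h and 193 ± 14.9 at 24 h. The 3 groups did not overlap with their neighbours in this order. From 6 h to 12 h the mean of the log2 signals corresponded to a 2.96-fold higher level, and from 12 h to 24 h to a 1.37-fold higher one. The steps between times were not compared by a test.

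TET16 is the gene next to TET11 in the RefSeq annotation of TAIR10.1, both on chromosome 1. Without induction its signals were 0.279 to 0.968 on the 9 arrays, all at background. In induced plants they were 3.21, 1.19 and 0.505 at 6 h, also all at background. At 12 h they were 6.22, 8.13 and 3.33, with 1 array at background, and at 24 h they were 12.4, 13.6 and 18.7. At 24 h TET16 was at least 3.35-fold higher than without induction. Its signals were lower than those of TET11, so the times at which the 2 probe sets passed background cannot be compared. The induced groups at 12 h and 24 h did not overlap. Those at 6 h and 12 h did not either, but their nearest arrays, 3.21 and 3.33, were both at background. That separation cannot be read as a difference in level. Probe sequences were not analysed here, so whether TET11 transcripts bound the TET16 probes was not tested.

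Further genes along the same stretch of chromosome 1 were read on the TET11 side, since the 3 genes before TET16 had no named probe set. AT1G18530, the next gene after TET11, had mean signals of 0.168 to 1.53 in the 6 groups, near background, which cannot show whether its level differed. AT1G18540, the one after it, stood at 1558 ± 107 and 1763 ± 109 with and without induction at 6 h, at 1506 ± 139 and 1773 ± 87.1 at 12 h and at 1607 ± 170 and 1924 ± 81.6 at 24 h. AT1G18550 had means of 1.75 to 10.6. None of these 3 genes passed limma for induction at any time (lowest adjusted p = 0.142, for AT1G18540 at 24 h).

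**Figure D2:**
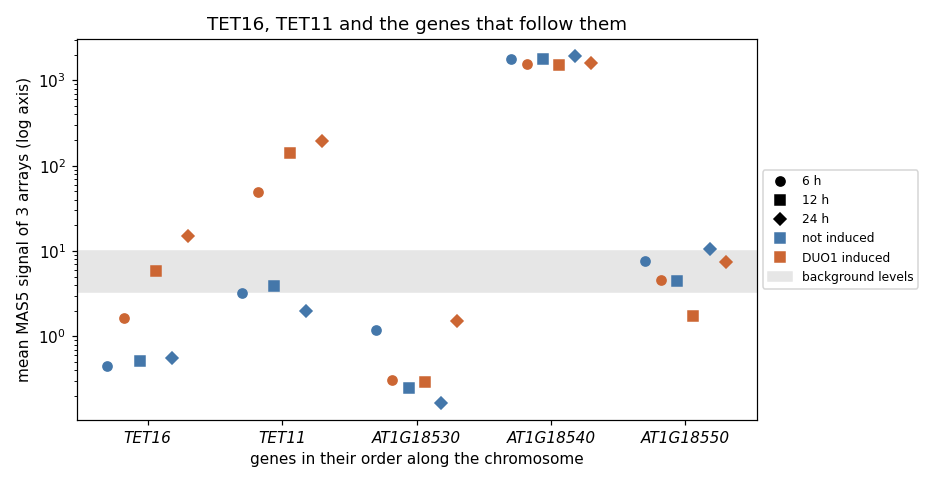
Mean MAS5 signal of 3 arrays (log axis) for TET16, TET11 and the genes that follow them along chromosome 1, by time (marker shape) and induction (colour); the grey band spans the background levels of the 18 arrays. TET16 and TET11 reached 14.9 and 193 in induced plants at 24 h, while AT1G18530 stayed at or below 1.53 and AT1G18540 between 1506 and 1924.

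TET12, the other sperm cell tetraspanin, was not higher in induced seedlings at any time. Its signals at 6 h were 2.25, 0.426 and 6.62 with induction and 16.2, 8.64 and 5.70 without. At 12 h they were 0.749, 0.992 and 1.46 against 3.08, 5.02 and 4.45, all 6 at background, so the order of these groups cannot be read as a level. At 24 h they were 5.49, 0.617 and 10.9 against 7.08, 6.99 and 8.59. Only 7 of 18 arrays lay above background for TET12, and the 24 h group without induction was the 1 group with all 3 arrays above it. The 2 sperm cell genes thus differed on these arrays: TET11 was above background on all 9 induced arrays, and TET12 on 2 of them.

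Other germline and pollen markers were read beside TET11. Of 20 entries in a list of male germline genes and DUO1 targets, 2 had a named probe set. MGH3 was the 1 that rose at each time, and SPL, which acts early in sporocyte formation, was at background on all 18 arrays. Of 13 pollen vegetative cell and tube markers, 7 had a named probe set. Their summed signal was 119 to 133 without and 131 to 154 with induction at 6 h. It was 118 to 125 and 146 to 189 at 12 h, and 87.9 to 111 and 179 to 221 at 24 h. ACT11, an actin gene of reproductive tissue, made up most of this sum, with means of 180 with and 81.7 without induction at 24 h. It was the 1 pollen marker called by limma, higher at 12 h and at 24 h. Of all probe sets 0.967%, 4.84% and 8.33% were called at 6 h, 12 h and 24 h. The receptor kinase genes ANX1 and ANX2, which act in the pollen tube, were at background on all 18 arrays.

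TET10 was well above background on every array and higher in induced plants at each time. At 6 h the induced arrays read 87.9, 96.0 and 98.8, and the others 72.5, 53.6 and 58.1. At 12 h the signals were 107, 109 and 124 against 71.4, 69.3 and 61.9. At 24 h they were 107, 89.2 and 109 against 54.9, 55.2 and 60.1. The groups were apart at all 3 times, and the induced plants stood 1.55-fold, 1.68-fold and 1.79-fold higher. Unlike TET11, TET10 was thus already expressed without induction, and its difference was similar at 6 h and at 24 h (log2 0.63 and 0.84).

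TET4 was close to background without induction and above it on all 9 induced arrays. Its signals were 13.2, 13.9 and 11.0 against 6.27, 10.4 and 9.63 at 6 h. At 12 h they were 13.7, 19.3 and 22.7 against 4.84, 9.20 and 3.16, the widest gap of the 3 times. At 24 h, when all 6 arrays were above background, they were 15.2, 14.7 and 12.7 against 9.14, 7.07 and 11.8, which is 1.55-fold. The groups did not overlap at any time, but the nearest arrays lay 1.05-fold, 1.49-fold and 1.07-fold apart.

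TET14 signals lay near background throughout, above it on 8 of 18 arrays. At 6 h they were 10.6, 8.39 and 0.843 with and 2.97, 6.46 and 5.86 without induction, and at 12 h 8.71, 3.96 and 4.84 against 6.97, 5.60 and 10.7, so the groups overlapped at both times. At 24 h they were 6.73, 8.51 and 5.63 against 0.976, 0.287 and 3.21. These 3 arrays without induction were at background and 2 of the 3 induced arrays were above it. Against the background level without induction, the difference was at least 1.57-fold. Background levels at 24 h were, however, higher on the induced arrays (median 6.37) than on the others (median 4.45). With signals raised to background, the log2 difference was 0.71 for TET14. It was 0.56 for TET15, another tetraspanin, which was at background on all 18 arrays. The bound for TET14 thus cannot be read as a difference in transcript.

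TET8, the vesicle tetraspanin, was lower in induced plants at all 3 times and above background on all 18 arrays. TET12 also had lower means at each time, but mostly at background. At 6 h the induced arrays read 249, 230 and 176, and the others 350, 333 and 281. The signals at 12 h were 177, 174 and 183 against 206, 223 and 193, and those at 24 h were 175, 168 and 188 against 196, 212 and 202. The groups did not overlap at any time, and TET8 was 1.48-fold lower at 6 h but 1.16-fold and 1.15-fold lower at 12 h and 24 h. The nearest arrays, however, lay only 1.13-fold, 1.05-fold and 1.04-fold apart at the 3 times. The wider gap at 6 h came with a higher level without induction: 321 ± 35.5 against 207 ± 15.2 and 203 ± 8.16 at the later times.

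Counted over the 7 genes, 4 separated the induced from the other arrays at 6 h, 6 at 12 h and 6 at 24 h, where 14.7%, 24.0% and 26.5% of all probe sets did. The 6 at 12 h include TET12, whose arrays were all at background then. By limma over all 22746 probe sets (adjusted p under 0.05), the calls were TET10 and TET11 higher and TET8 lower at 6 h, TET4, TET10, TET11 and TET16 higher at 12 h, and TET10, TET11, TET14 and TET16 higher at 24 h, or 3, 4 and 4 of 7. Of all probe sets 0.967%, 4.84% and 8.33% were called. Since the genes were chosen with these differences known, nothing is read from the counts. The median log2 difference of the 7 genes was 0.56, 0.75 and 0.84, and that of all probe sets 0.04, 0.04 and 0.02. The 3 calls at 6 h became 0 when only the 6 h arrays were fitted, and 1, TET11, without induced 6 h replicate 3 or without 6 h replicate 2 of the other group. By gene, the TET8 and TET10 calls at 6 h were each lost in 6 of 15 alternatives and the TET11 call in 1 of 14. The TET14 call at 24 h was lost in 11 of 14 alternatives, the TET4 call at 12 h in 3 and the TET16 call at 12 h in 2. With signals raised to background the TET16 difference at 12 h was 0.24 on the log2 scale. The other calls at 12 h and 24 h held in every alternative that tested them.

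The other 8 tetraspanin genes with a named probe set were TET2, TET3, TET5, TET6, TET7, TET9, TET13 and TET15. Limma called 0 of them for induction at 6 h, 12 h and 24 h, with 1, 0 and 0 at an unadjusted p under 0.05, where 13.0%, 16.6% and 21.0% of all probe sets were. TET3, a plasmodesmal tetraspanin, stood at 123 to 208 over all 18 arrays, and TET7 at 145 to 204. TET2, TET5 and TET6 were also above background on every array, whereas TET15 was on none. Their median log2 difference was 0.06, 0.15 and 0.10 at the 3 times. These 8 were left out of the choice with the same values known, so the contrast with the 7 is not a finding.

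**Figure D3:**
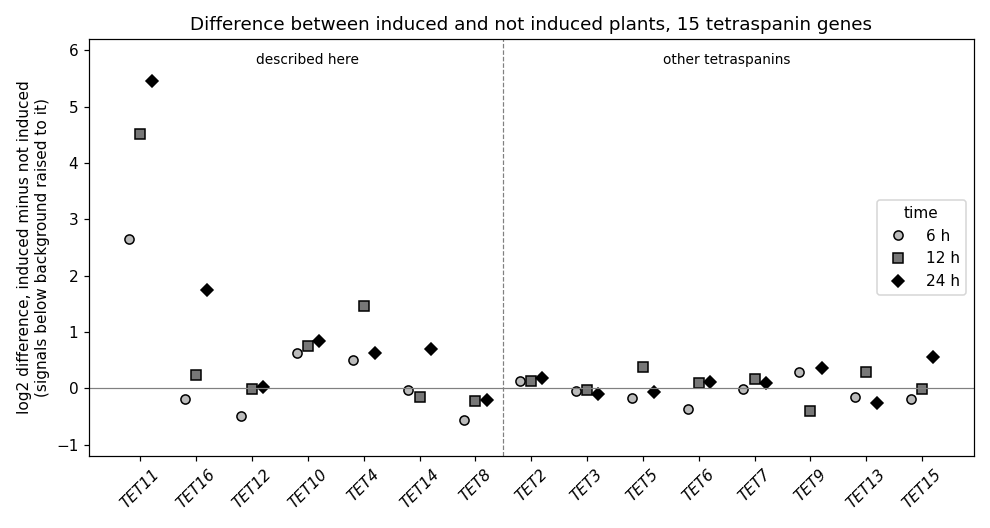
Log2 difference, induced minus not induced, at each of the 3 times for 15 tetraspanin genes, after signals below the background level of their array were raised to it; each marker is a difference between means of 3 arrays. TET11 stands apart with differences of 2.66, 4.52 and 5.46, TET16 reaches 1.75 at 24 h, and TET8 lies below 0 at each time. Background levels differed between groups, so markers of genes near background can lie off 0 without a difference in transcript. TET15, at background on all 18 arrays, lies at 0.56 at 24 h.

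Whether the induction response itself differed between times was fitted as an interaction. It is made of the same differences that were known when the genes were chosen, so its counts are a description. Limma called 0 of the 7 genes for 12 h against 6 h, for 24 h against 12 h and for 24 h against 6 h, with 2, 2 and 3 at an unadjusted p under 0.05. Over all probe sets the calls were 0.193%, 0% and 1.61%, and 10.6%, 6.99% and 14.1% had an unadjusted p under 0.05. The counts depended on how signals at background were treated: with signals raised to the background level, they were 1 of 7, TET11, for 12 h against 6 h and 2 of 7, TET11 and TET16, for 24 h against 6 h.

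Change with time in plants without induction was tested on the assumption that the genes were chosen for their response to induction. Which values chose them is not recorded, and the arrays also enter the comparisons above. For TET8 the high 6 h arrays without induction are also those behind its wider gap at 6 h, so its test is not independent of the choice. TET8 fell between 6 h and 12 h, from 321 ± 35.5 to 207 ± 15.2 (n = 3), a log2 change of -0.63 ± 0.11 SE (limma, adjusted p = 0.00402). By 24 h the log2 change from 6 h was -0.66 ± 0.11 SE (limma, adjusted p = 0.000612), and from 12 h to 24 h it was -0.03 (95% interval -0.26 to 0.20). All 3 arrays at 6 h were above all 6 later ones, and the 12 h and 24 h arrays overlapped. Of the 7 genes limma called 1, 0 and 1 for 12 h against 6 h, 24 h against 12 h and 24 h against 6 h, where 2.91%, 1.45% and 9.86% of all probe sets were called, with 1, 1 and 2 at an unadjusted p under 0.05, as were 17.3%, 10.9% and 23.5% of all probe sets.

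The 6 h arrays without induction also had higher hybridisation controls, spiked transcripts whose mean log2 signal was 8.86 to 9.10 there, 8.29 to 8.60 at 12 h and 8.01 to 8.52 at 24 h. With these controls as a covariate, the log2 change of TET8 was -0.53 by 12 h (limma, adjusted p = 0.0404) and -0.52 by 24 h (0.0309), so both calls held. Over the 15 alternatives to the fit, the adjusted p lay between 0.00205 and 0.0404 for the first and between 0.000302 and 0.0309 for the second. The induction difference of TET8 at 6 h involves the same 6 h arrays. With the hybridisation controls as a covariate it was -0.49 on the log2 scale and was no longer called.

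TET10 without induction stood at 61.4 ± 9.85, 67.5 ± 5.00 and 56.7 ± 2.95 (n = 3) at the 3 times. Its log2 change was 0.15 from 6 h to 12 h (95% interval -0.11 to 0.41) and -0.10 from 6 h to 24 h (-0.36 to 0.16), neither of which passed. TET4, at background on 3 of 9 arrays without induction, stood at 8.78 ± 2.21, 5.73 ± 3.12 and 9.35 ± 2.39 and did not pass either. TET14, at background on all 3 arrays at 24 h, was at least 1.71-fold lower there than at 12 h, without a call (adjusted p = 0.107). Background levels were also lower at 24 h (median 4.45) than at 12 h (median 5.63), so this bound includes a difference between background levels. With signals raised to background, the log2 change was -0.77 for TET14 and -0.36 for TET15. Without replicate 3 of the 24 h plants TET14 was called as lower at 24 h than at 12 h (adjusted p = 0.0486) and than at 6 h (adjusted p = 0.0347), differences whose size against background cannot be read. TET11 without induction, at background on 7 of 9 arrays, was called as higher at 12 h than at 6 h without replicate 2 of the 6 h plants, the array that read 8.68. With signals raised to background it was called as lower at 24 h than at 6 h (-0.78), a difference between background levels. TET13, which is not among the 7 genes, passed from 6 h to 24 h, from 0.821 ± 0.264 to 7.83 ± 1.69 (adjusted p = 0.0148), but with signals raised to background its log2 change was 0.27 (adjusted p = 0.582), and the call was also lost without 6 h replicate 2 (0.0558) or without 24 h replicate 1 (0.0526) and with the hybridisation controls as a covariate (0.106).

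**Figure D4:**
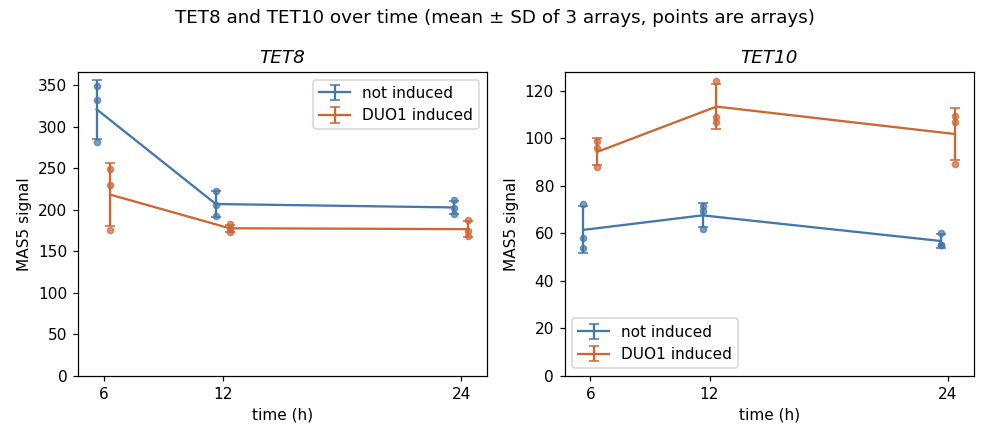
MAS5 signal (linear axis from 0) of TET8 and TET10 at 6 h, 12 h and 24 h with and without induction; points are arrays, and lines with bars are means ± SD of 3 arrays. TET8 without induction went from 321 at 6 h to 207 at 12 h and 203 at 24 h, while TET10 stayed between 56.7 and 67.5 without and between 94.2 and 113 with induction.

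In induced plants the change with time was tested for TET4, TET8, TET10 and TET14, whose response had not been singled out in earlier results. The signals of these arrays were known when the genes were chosen, and they enter the induction comparisons. These tests are therefore not independent of the choice. Limma called 0 of 4 for 12 h against 6 h, 24 h against 12 h and 24 h against 6 h, where 1.89%, 3.43% and 7.81% of all probe sets were called. At an unadjusted p under 0.05 there were 2, 0 and 1 of 4, and 14.6%, 14.6% and 20.5% of all probe sets. TET8 went from 218 ± 37.7 at 6 h to 178 ± 4.43 and 177 ± 10.0, a log2 change of -0.28 by 12 h (95% interval -0.51 to -0.05, adjusted p = 0.233) and -0.29 by 24 h (adjusted p = 0.126). Without induced 6 h replicate 3, the lowest TET8 array at that time, it was called at both, with log2 changes of -0.43 and -0.44. TET10 stood at 94.2 ± 5.68, 113 ± 9.58 and 102 ± 10.9, and its log2 change from 6 h to 12 h was 0.26 (0.00 to 0.52, adjusted p = 0.331).

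Tetraspanins at the cell surface depend on vesicle traffic, and a list of 32 vesicle secretion and exocyst genes had 7 with a named probe set. At 6 h 0 passed limma for induction, at 12 h 1 rose and at 24 h 1 rose, with 0 falls at each time, where 0.967%, 4.84% and 8.33% of all probe sets were called. SEC5A, an exocyst subunit, stood at 211 ± 20.2 against 161 ± 8.44 at 12 h (log2 0.39, adjusted p = 0.0486), and SEC10, another subunit, at 176 ± 9.49 against 141 ± 16.7 at 24 h (log2 0.32, adjusted p = 0.0389). Each call was lost in 10 of 15 alternatives, among them shifting all arrays to 1 median (adjusted p = 0.0929 and 0.0975) and leaving out any of 5 single arrays for either gene. The median log2 difference of the 7 genes was 0.20, 0.17 and 0.20 at the 3 times, beside 0.04, 0.04 and 0.02 for all probe sets. In the change with time without induction 0 of 7 passed.

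Genes with a like pattern were named by the Pearson correlation of log2 signals over the 18 arrays among 9994 other probe sets with 1 gene, above background on all 3 arrays of at least 1 group. The arrays share induction and time, so a high value marks genes that differ between the same groups. For TET11 the 5 closest were scpl48 (r = 0.941), AT4G11800 (0.937), AT5G05110 (0.936), AT5G50170 (0.935) and AT4G20880 (0.934). The carboxypeptidase-like gene scpl48 stood at 292, 516 and 498 in induced plants at 6 h, 12 h and 24 h and at 183, 177 and 175 without induction. AT5G50170 stood at 51.2, 109 and 107 against 20.5, 20.8 and 18.5. Unlike TET11, both were well above background without induction.

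For TET16, above background on 5 of 18 arrays, the closest were AT3G60780 (r = 0.954), AT5G60720 (0.949) and AT5G60250 (0.937). AT3G60780 had means of 3.02, 22.0 and 33.6 in induced plants and of at most 0.859 without induction. It was at background on all arrays other than those induced at 12 h and 24 h, so its correlation rests in part on signals at background. For TET10 the closest were AT1G24735 (0.967), AT1G27120 (0.963) and MGH3 (0.951). For TET4 they were AT5G52550 (0.828), CYP78A9 (0.824) and TAC1 (0.823), of which CYP78A9, a cytochrome P450 gene, had its highest mean at 12 h with induction, 133, as TET4 did. For TET8 they were AT1G29310 (0.892), the zinc finger gene STZ (0.886) and AT3G52230 (0.868). STZ stood at 80.7 without induction at 6 h and at 40.7 and 37.1 at the later times. For TET12, mostly at background, the highest were AT1G01940 (0.792), AT3G49190 (0.775) and AT4G25250 (0.765).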

How the data were processed

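RNA from 18 seedling samples, 3 in each of 6 labelled groups, was hybridised to ATH1 arrays. The authors deposited 1 intensity per probe set and array, the MAS5 signal from GCOS, per the submitters' processing notes. No version or scaling target is stated. Trimming 2% of probe sets at either end gave a mean of 100 on every array. The tests covered 22746 of 22810 probe sets, all but 64 controls, unfiltered. Of these 13513 had 1 gene, 503 several and 8730 none in the annotation used here.

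The linear model (limma 3.58.1 in R 4.3.3) was fitted to log2 of these signals with a mean for each group, using the 18 arrays together and moderated variances with an intensity trend, 12 residual and 7.69 prior degrees of freedom, Benjamini-Hochberg adjustment within each contrast. The fit was tested on simulated data. Array measures and figures used Python 3.11.15, numpy 2.4.6, pandas 2.3.3 and matplotlib 3.10.9. The number of arrays limits the precision. The genes and lists were chosen with earlier results of these data known. All 7 genes are named, with the 5 closest genes for TET11 and 3 for each other gene measured on all arrays of a group. AT1G18530, AT1G18540 and AT1G18550 were chosen for their position.

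Alternatives were quantile normalization, 1 common median, a filter at the 40th percentile of mean signal, log2(signal + 5), signals raised to background, no trend, only the arrays compared, a replicate block, and leaving out each array. The hybridisation controls as a covariate were added after the data were seen. The replicate numbers did not pair the arrays: deviations of same-numbered arrays correlated at -0.23 to 0.20 over 15 pairs of groups. Protein and promoter sequences were not used here.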

Additional observations from a re-analysis of the deposited data

How the results depend on the processing

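Of 198 recomputed counts of called tetraspanins, 183 stayed within 1.5 times, and of 1370 recomputed values of single genes 1302 were counted as unchanged. For tested values that meant the same direction, where called, and the same side of the threshold. For TET11, TET12 and TET16 over time in induced plants, which were not tested, it meant a shift below the SD of log2 signals within groups. For induction at 6 h the count of 3 became 0 with only the arrays compared and 1 with the hybridisation controls as a covariate, and ranged from 1 to 3 when single arrays were left out. At 12 h and 24 h the count of 4 became 1 with the filter at the 40th percentile, which leaves TET8 and TET10 as the 2 genes tested. Without induction, the count between 6 h and 24 h became 2 with signals raised to background, where TET11 reversed to -0.78, and leaving out single arrays gave counts of 1 to 2 for 12 h against 6 h, 0 to 1 for 24 h against 12 h and 1 to 2 for 24 h against 6 h. In induced plants that range was 0 to 1 for 12 h against 6 h and for 24 h against 6 h. The count of 0 differing responses became 1 for 12 h against 6 h and 2 for 24 h against 6 h with signals raised to background, and 2 for 24 h against 6 h with log2(signal + 5). With the replicate block the counts for induction stayed at 3, 4 and 3, the last without TET14, and it changed no other call among the 7 genes. Since the choice of genes used the induction contrasts, losses of single calls there are not listed by gene beyond those named above. The causes were not tested beyond what the settings remove. Signals near the background level limit TET12, TET14 and TET16.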
